A study of Mus musculus with 8 samples.

Results

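The mRNAs of the mitochondrial respiratory complexes II, III, IV and V and of cytochrome c were followed in islets that overexpress UCP2. The members were all genes on the array whose symbol begins with Sdha, Sdhb, Sdhc, Sdhd, Uqcr, Cox4i, Cox5, Cox6, Cox7, Cox8 or Atp5, together with Cyc1 and Cycs, without pseudogenes, antisense genes and the Sdhaf assembly factors. This rule used names and no measured difference, and gave 49 genes (76 probes) of 26894 genes with a symbol (56605 probes). They comprise 4 genes of complex II, 9 of complex III, cytochrome c, 18 of complex IV and 17 of complex V. The rule took Atp5s and Atp5sl by name, and they are described with complex V although they are not subunits of ATP synthase.

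Islets of βUCP2Tg mice were compared with islets of WT mice on one-colour Agilent arrays, with 4 samples in each group. βUCP2Tg mice carry a mouse UCP2 cDNA behind the rat Ins2 promoter and a rabbit β-globin intron, which directs the transgene to β cells, and they were backcrossed to C57BL6/J. All samples came from male mice, WT mice lacked the transgene, and the study's methods give an age of 8 to 12 weeks for islet donors. All islets, of both genotypes, were incubated for 8 h in medium with 200 mg/dL glucose before RNA was extracted. The sources do not say whether a sample holds islets of 1 mouse or of several, so p-values measure only the spread between these samples, which may be technical. The genotypes occupied separate rows of 1 slide, and slide row and genotype cannot be told apart.

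The respiratory chain passes electrons to oxygen and pumps protons out of the matrix. Complex II (succinate dehydrogenase) feeds electrons from the citric acid cycle into ubiquinone, complex III (ubiquinol-cytochrome c reductase) hands them to cytochrome c, complex IV (cytochrome c oxidase) reduces oxygen, and complex V (ATP synthase) uses the returning protons to make ATP. In β cells the ATP made from glucose closes potassium channels and triggers insulin secretion, and UCP2 is a carrier of the same inner membrane to which proton leak has been ascribed.

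The values below are log2 signals after the array's 75th percentile was subtracted, so 0 is that percentile and a step of 1 is a factor of 2. Levels of different probes cannot be set against each other on this scale. Both Ucp2 probes were higher on every βUCP2Tg array than on any WT array, by very different amounts. The first gave 7.71, 7.50, 7.33 and 6.99 in βUCP2Tg islets and 1.18, 0.92, 1.03 and 1.46 in WT islets (log2 fold change 6.24, limma adjusted p = 9.32e-06). The second gave 0.84, 0.90, 0.89 and 0.78 against 0.37, 0.22, 0.35 and 0.73 (log2 fold change 0.44, adjusted p = 0.0987). The β-cell list, which held Ins1, Ins2, Pdx1 and Mafa among 9 genes, had a mean level of 4.99 to 5.33 in βUCP2Tg and 4.95 to 5.49 in WT arrays. Each array had 33191 to 36320 probes well above background, none of its spots was saturated, and the number of arrays is among the limits on the precision. Before scaling, the log2 75th percentile was 8.996, 9.046, 9.161 and 9.144 on the βUCP2Tg arrays. It was 8.894, 8.795, 8.863 and 8.781 on the WT arrays, so every βUCP2Tg array was the brighter. The scaling takes this difference out, and its origin was not tested.

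No member mRNA differed between βUCP2Tg and WT islets by the limits used here, which asked for more than a 1.5-fold change together with an adjusted p under 0.05. Of the 49 members, 46 were well above background on enough arrays to be tested, and all 46 were so on all 8 arrays. The count called was 0 of 46, against 86 of 17857 genes tested (0.482%). With 1 array left out the count over all genes ran from 5, without βUCP2Tg replicate 1, 2 or 3, to 2020, without WT replicate 1, and the count of members stayed at 0. The smallest adjusted p among the members was 0.155. At an unadjusted p under 0.05, 1 member was higher (Atp5sl; 12.9% of all genes tested were higher) and 1 was lower (Cox5a; 11.6% were lower). Groups that did not overlap were found for 0 members in the higher direction (6.36% of all genes) and for 3 in the lower direction, Cox5a, Uqcrb and Atp5g1 (6.74% of all genes). The share of 3 in 46, which is 6.52%, is near that background.

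The changes of the members were small, and most were bounded closely. The log2 fold changes ran from -0.52 to 0.30 with a median of -0.01, and the median over all genes tested was 0.03. There were 21 members above 0 and 25 below 0. The median size of the change was 0.08 in the members and 0.20 over all genes. For 44 of 46 members (95.7%) the 95% interval of the fold change lay wholly inside 1.5-fold, against 52.6% of all genes tested. The 36 nuclear complex I subunits tested were alike in this, with 97.2% inside 1.5-fold and a median size of change of 0.05, so the small changes were not particular to the members. The members whose interval reached past 1.5-fold were Cox6a2 and Atp5sl. The members were also measured with less scatter, with a median within-group SD of 0.11 against 0.21 over all genes.

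**Figure D1:**
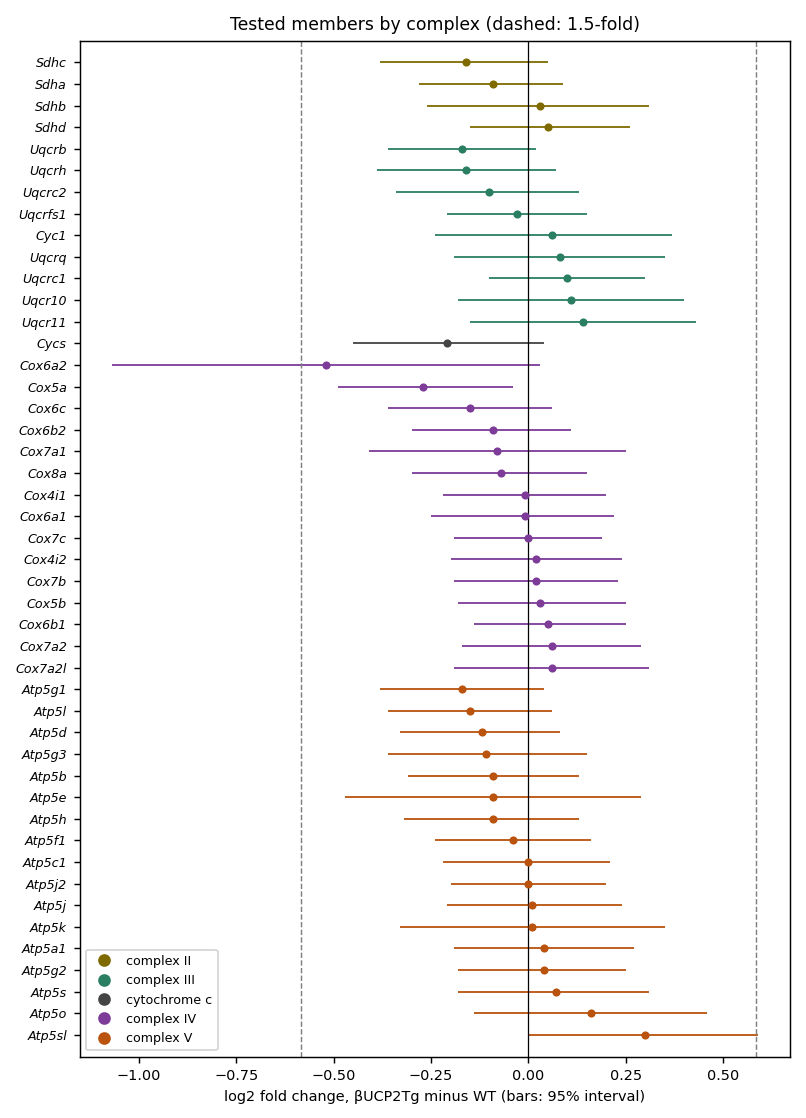
Log2 fold change (βUCP2Tg minus WT) of the 46 tested members, grouped by complex; points are limma estimates from 4 against 4 arrays and bars their 95% intervals. Dashed lines mark 1.5-fold (0.58 on the log2 scale), and only the intervals of Cox6a2 and Atp5sl reach past them.

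In complex II, Sdha and Sdhb form the catalytic head and Sdhc and Sdhd the membrane anchor. Sdha, the flavoprotein that oxidises succinate, gave 4.42, 4.38, 4.34 and 4.29 in βUCP2Tg islets and 4.39, 4.45, 4.41 and 4.52 in WT islets. The difference was -0.09 (SE 0.08, adjusted p = 0.50), and the groups overlapped. Sdhb, the iron-sulphur subunit often used as a protein marker of complex II, gave 4.83, 4.81, 4.75 and 4.65 in βUCP2Tg and 5.00, 4.65, 4.48 and 4.79 in WT islets. All 4 βUCP2Tg values of Sdhb lay within the range of the WT values. Its log2 fold change of 0.03 had a 95% interval from -0.26 to 0.31. Sdhc changed by -0.16 and Sdhd by 0.05, neither with an unadjusted p under 0.05.

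In complex III the 9 members had a median change of 0.06, with 5 above 0 and 4 below. Uqcrb, a small subunit near the ubiquinone site, gave 4.51, 4.53, 4.43 and 4.60 in βUCP2Tg islets and 4.65, 4.65, 4.67 and 4.79 in WT islets. Every βUCP2Tg value lay below every WT value, although the change was only -0.17 (SE 0.08, adjusted p = 0.236). A further Uqcrb probe on the RefSeq mRNA gave -0.08 with overlapping groups. The Uqcrb probe on an Ensembl transcript gave -0.61, also with overlapping groups (adjusted p = 0.293). Over all alternatives the Uqcrb change ran from -0.29 to -0.08, the latter with quantile normalization. The core proteins Uqcrc1 and Uqcrc2 moved by 0.10 and -0.10, the Rieske iron-sulphur protein Uqcrfs1 by -0.03, and the haem protein Cyc1 by 0.06. Uqcrc2, another protein marker in common use, read 4.20, 4.21, 4.16 and 4.28 in βUCP2Tg against 4.09, 4.38, 4.34 and 4.46 in WT islets, so the βUCP2Tg values again sat inside the WT range. At the ends of the complex were Uqcr11 at 0.14 and Uqcr10 at 0.11, with Uqcrh, the hinge protein that helps cytochrome c bind, at -0.16.

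Cycs encodes cytochrome c, the soluble carrier between complexes III and IV that also takes part in apoptosis when it leaves the mitochondrion. It gave 4.53, 4.67, 4.69 and 4.72 in βUCP2Tg and 4.62, 4.98, 4.93 and 4.90 in WT islets. Only WT replicate 1 overlapped the βUCP2Tg values. The change was -0.21 (SE 0.11, adjusted p = 0.259). The other Cycs probe gave the same change, -0.21, with groups that did not overlap (2.61 to 2.77 in βUCP2Tg, 2.78 to 3.07 in WT, adjusted p = 0.202). On the probe scale 7.17% of all probes tested had non-overlapping groups with βUCP2Tg lower. Without WT replicate 1, alone or together with βUCP2Tg replicate 4, Cycs had an unadjusted p under 0.05. With quantile normalization its change was -0.09. Over all alternatives the Cycs change ran from -0.31 to -0.09 and its adjusted p from 0.0548 to 0.543.

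In complex IV, 15 of 18 members were tested and their median change was -0.01. Cox5a, a nuclear-encoded subunit on the matrix side of the enzyme, gave 4.77, 4.78, 4.76 and 4.59 in βUCP2Tg and 4.99, 4.96, 4.84 and 5.16 in WT islets. The groups were separate, with the smallest gap between βUCP2Tg replicate 2 and WT replicate 3. The change was -0.27 (SE 0.10), a fold of 0.832 with a 95% interval from 0.710 to 0.975, and the unadjusted p of 0.0282 became 0.155 after adjustment. Without βUCP2Tg replicate 3, replicate 4 or WT replicate 4, Cox5a no longer had an unadjusted p under 0.05, nor did it with quantile or median scaling of the arrays, with the replicate number as a block or with both βUCP2Tg replicate 4 and WT replicate 1 left out. The Cox5a change was -0.16 with quantile and -0.20 with median scaling. The partner subunit Cox5b changed by 0.03.

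With all 8 arrays and 1 probe per gene, Cox6a2 had the largest change of the members and also the largest scatter. It is the isoform of subunit VIa known from heart and skeletal muscle. βUCP2Tg islets gave 4.41, 3.96, 3.89 and 3.90, and WT islets gave 5.15, 4.31, 4.06 and 4.71. The WT values spanned over a full log2 unit, and βUCP2Tg replicate 1 lay above WT replicates 2 and 3. The change was -0.52 (SE 0.24, adjusted p = 0.220), and its 95% interval of fold ran from 0.477 to 1.02, so neither no change nor a fall beyond 1.5-fold lies outside it. Without WT replicate 1 the change was -0.32, smaller in size than the 0.40 of Atp5sl in the same setting, and with βUCP2Tg replicate 4 left out too it was -0.27. Without βUCP2Tg replicate 1 it was -0.64 and without WT replicate 3 it was -0.68, both past 1.5-fold. In those 2 settings, and with normexp, the intensity trend or the replicate block, Cox6a2 had an unadjusted p under 0.05, while its adjusted p over all alternatives ran from 0.127 to 0.402. The other isoform of that subunit, Cox6a1, which most tissues use, changed by -0.01 with a 95% interval from -0.25 to 0.22.

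The isoforms of the other complex IV subunits all had changes of 0.09 or less in size. Cox4i1, the common form of subunit IV, changed by -0.01 and Cox4i2, a form known from lung and from the response to low oxygen, by 0.02. Cox6b1 changed by 0.05 and its testis form Cox6b2 by -0.09. Cox7a1, a muscle form, changed by -0.08, Cox7a2 by 0.06 and Cox7a2l, which helps join complexes III and IV, by 0.06. Cox7b moved by 0.02 and Cox8a by -0.07. The 3 members that could not be tested, Cox7b2, Cox8b and Cox8c, are forms known from testis or muscle. Cox8b and Cox8c were well above background on 0 of 8 arrays and Cox7b2 on 1 WT array only.

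In complex V the 17 members had a median change of 0.00, with 7 above 0 and 10 below. Atp5a1 and Atp5b, the α and β subunits of the catalytic F1 head, changed by 0.04 and -0.09. Atp5a1 gave 6.58, 6.52, 6.41 and 6.28 in βUCP2Tg and 6.41, 6.34, 6.33 and 6.55 in WT islets, with wide overlap. The genes Atp5g1, Atp5g2 and Atp5g3 encode the same mature c subunit of the proton-turned ring. Atp5g1 gave 5.61, 5.63, 5.52 and 5.43 in βUCP2Tg against 5.86, 5.68, 5.64 and 5.70 in WT islets, so the groups were separate by 0.01 at their nearest point. Its change was -0.17 (SE 0.09, adjusted p = 0.285), beside 0.04 for Atp5g2 and -0.11 for Atp5g3. Further Atp5g1 probes gave -0.14 on the RefSeq mRNA and -0.19 on an Ensembl transcript, both with overlapping groups. With quantile normalization Atp5g1, Atp5g2 and Atp5g3 changed by -0.03, 0.17 and 0.03. Atp5l, a membrane subunit, changed by -0.15, and Atp5o, the stalk subunit that confers oligomycin sensitivity, by 0.16.

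The only member with an unadjusted p under 0.05 in the higher direction was Atp5sl, now named Dmac2 and known as an assembly factor of complex I. It gave 2.24, 2.40, 2.22 and 2.11 in βUCP2Tg and 2.26, 1.81, 1.80 and 1.90 in WT islets. WT replicate 1 alone reached the βUCP2Tg values. The change was 0.30 (SE 0.13), with an unadjusted p of 0.0477 and an adjusted p of 0.194. A further probe gave 0.38 with groups that did not overlap (adjusted p = 0.117). The unadjusted p of the brightest probe rose past 0.05 without βUCP2Tg replicate 1, 2 or 3 and without WT replicate 2, 3 or 4, as it did with no filter on dim probes or one of at least 1 array, with the methods' t-test and with the replicate block. Without WT replicate 1 the adjusted p of Atp5sl was 0.036, the change of 0.40 stayed under 1.5-fold, and the count of genes called in the whole comparison rose from 86 to 2020.

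**Figure D2:**
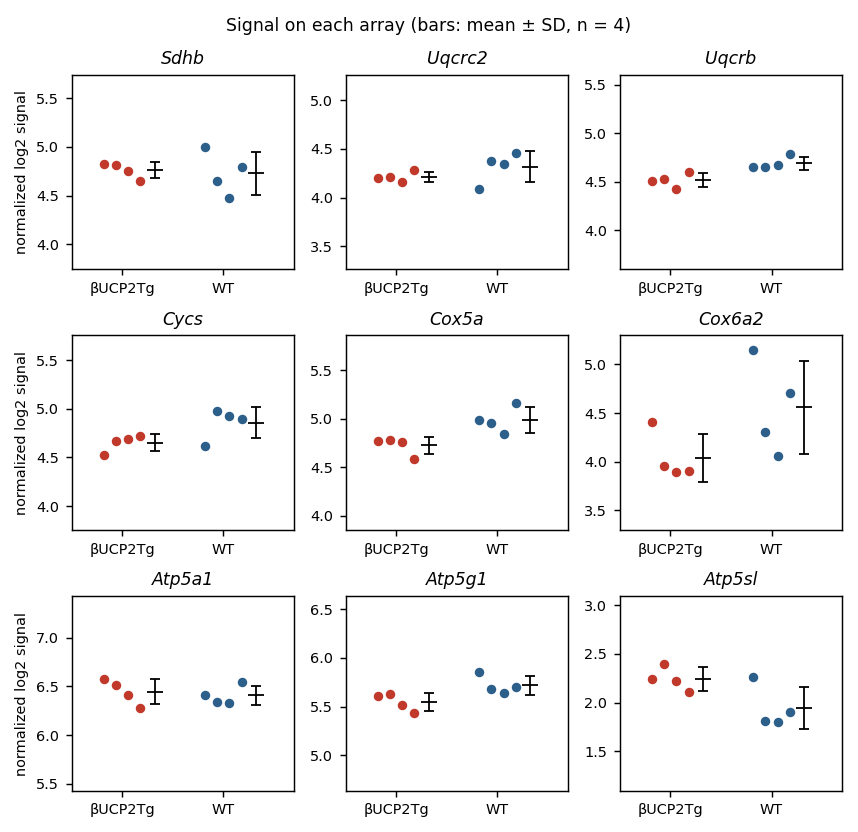
Normalized log2 signal of 9 members on each array, with the mean and SD (n = 4) beside the points; each panel spans 2 log2 units. Cox5a, Uqcrb and Atp5g1 have separate groups, Cycs and Atp5sl overlap only through WT replicate 1, and Sdhb, Uqcrc2 and Atp5a1 overlap widely.

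Much of the scatter in the members was shared between genes on an array. Taken as the median deviation from each gene's mean over 8 arrays, the βUCP2Tg arrays lay at 0.03, 0.06, -0.04 and -0.09 and the WT arrays at 0.08, -0.03, -0.06 and 0.12. βUCP2Tg replicate 4 was the lowest of its group for 31 of 46 members, and WT replicate 3 for 25. WT replicate 4 was the highest of its group for 25 members and βUCP2Tg replicate 2 for 22. The range within a genotype exceeded the median difference between genotypes.

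**Figure D3:**
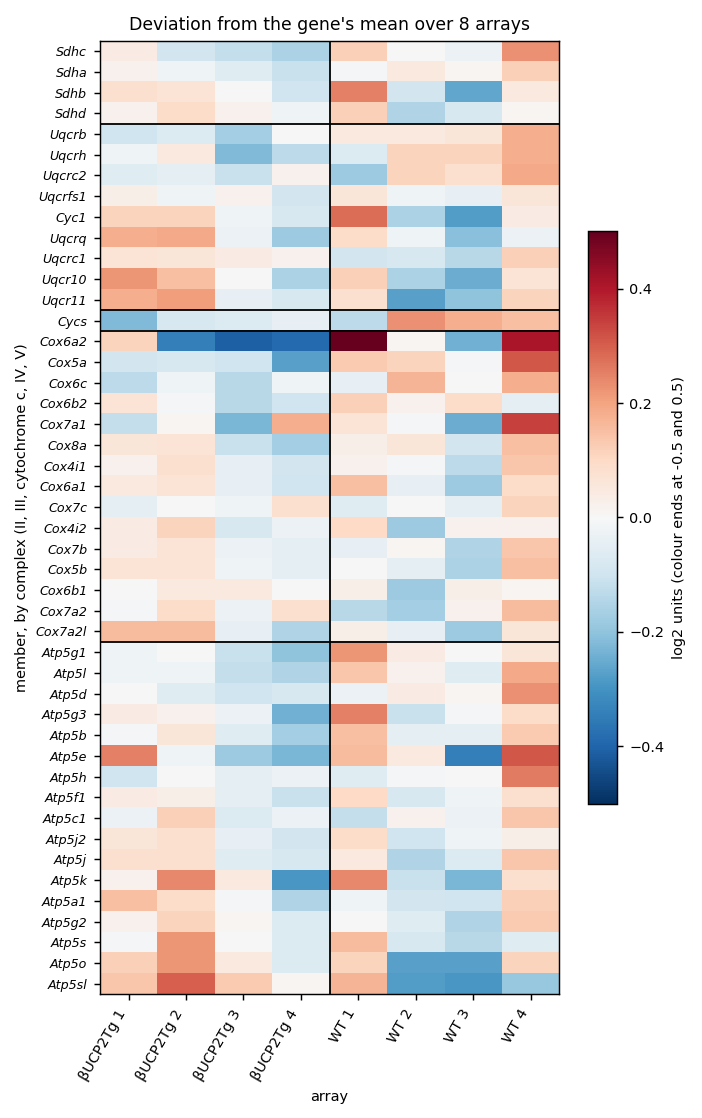
Deviation of each tested member from its own mean over the 8 arrays, in log2 units (blue lower, red higher), members ordered by complex and arrays by genotype. Whole columns shift together, with WT replicate 4 mostly red and βUCP2Tg replicate 4 mostly blue, and no complex separates the genotypes as a block.

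Acinar and hypoxia response genes spread far more over the arrays than the members did. The 15 acinar genes, which encode digestive enzymes and their partners, had a mean level from -1.60 to 2.71 in βUCP2Tg and from -1.21 to 3.39 in WT arrays. All 15 were lower on average in βUCP2Tg islets but 0 had an unadjusted p under 0.05. The mean was high in βUCP2Tg replicate 4 and low in WT replicate 4, against the rest of their groups. The 12 hypoxia response genes had mean levels of 1.13, 1.07, 1.06 and 2.31 in βUCP2Tg and 1.84, 2.47, 2.57 and 2.66 in WT arrays, and 9 of them were lower at an unadjusted p under 0.05 with 0 called. Of 8 macrophage genes 1 was called, Cd14, at -2.10 (adjusted p = 0.048), while C1qa was at 0.66 with separate groups (adjusted p = 0.0823). The other macrophage genes were Cd68 at -0.88, Csf1r at -0.56, Adgre1 at -0.37, C1qb and C1qc at -0.09 and Lyz2 at 0.09, all with overlapping groups. In all, 2 of the 8 changes were above 0 and 6 below. The list's mean ran from -0.53 to -0.03 in βUCP2Tg and from -0.22 to 0.53 in WT arrays. None of the 8 endothelium genes, the 6 genes of alpha, delta and PP cells or the 9 β-cell genes was called, with 4, 2 and 2 of them at an unadjusted p under 0.05. The mean level of the 46 members stayed between 4.21 and 4.42 over all arrays. The part of these lists in the members' values was not tested, and in bulk islets fewer cells of a type and less RNA per cell cannot be told apart. With both βUCP2Tg replicate 4 and WT replicate 1 left out, the median change of the members was 0.02 and 0 members were called.

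**Figure D4:**
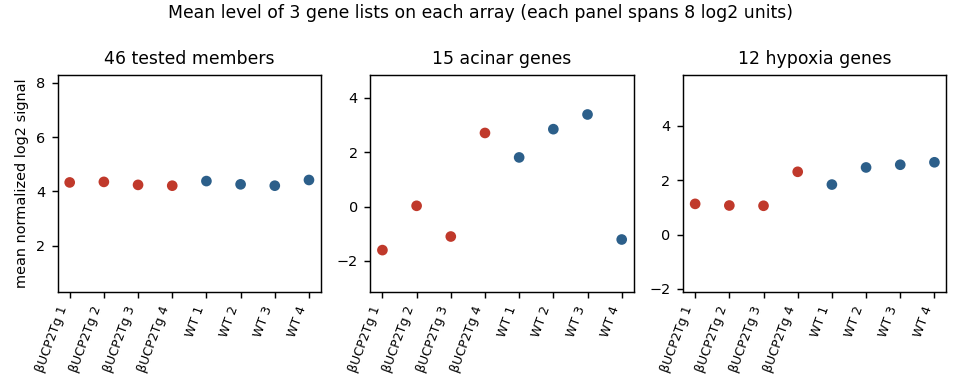
Mean normalized log2 signal per array of the 46 tested members, 15 acinar genes and 12 hypoxia response genes; each panel spans 8 log2 units. The members stay between 4.21 and 4.42 while the acinar mean runs from -1.60 to 3.39.

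Of the members, 18 had further tested probes, 25 in all. The array's descriptions place 16 of these on a RefSeq mRNA. Those had a median change of 0.02, with 10 above 0 and 6 below, and only the Atp5sl probe had an unadjusted p under 0.05 (25.2% of all probes tested had one in either direction). The further Cox7c probe read -0.18 in WT replicate 4 and 1.81 to 2.18 on the other 7 arrays, and its change of 0.52 had a 95% interval from -0.59 to 1.63. The further probes that name an Ensembl transcript had lower values. Of these 8 probes, 7 were below 0, their median was -0.32, and 3 had an unadjusted p under 0.05, all lower. Over all genes, 76.4% of 3141 such further probes were below 0 with a median of -0.29 and 30.9% were lower at an unadjusted p under 0.05, so this is no result about the members. None of the member probes was called (0.41% of all probes tested were).

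The further Atp5d probe gave the largest value of this kind. Atp5d encodes the δ subunit of the F1 stalk. The further probe read -5.39, -5.35, -6.08 and -4.97 in βUCP2Tg and -4.84, -3.64, -3.65 and -3.32 in WT islets, a change of -1.58 (SE 0.35, adjusted p = 0.0807) with separate groups. It was dim, and well above background on 3 of 4 βUCP2Tg arrays. The brightest Atp5d probe, on the RefSeq mRNA, gave -0.12 (adjusted p = 0.409). With the mean of both probes in place of the brightest, Atp5d changed by -0.85, a larger change than that of Cox6a2, with an unadjusted p under 0.05 and an adjusted p of 0.0755. For Sdha, the Ensembl probe gave -0.28 (adjusted p = 0.186) against -0.09 for the brightest probe. The first 30 of 60 bases of these probes are shown to let the targets be told apart, with the Cox5a and Cox6a2 probes of the results above. Capitals mark GTAAG, letters that also begin many introns, and a match does not show that the probe reads into one.
Cox5a brightest probe: cccttcgatgggcttcctaaggacttaact
Cox6a2 brightest probe: agcaatcttcaaattggccttctgcacacc
Sdha brightest probe: ccagactttgtctctttattcttgtgcagt
Sdha Ensembl probe: ccgatcacatactgttgcagcacagGTAAG
Atp5d brightest probe: gtattgaggccaatgaagccctagtgaagg
Atp5d Ensembl probe: agaacccagagtcgtttgctgttagaaggc

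**Figure D5:**
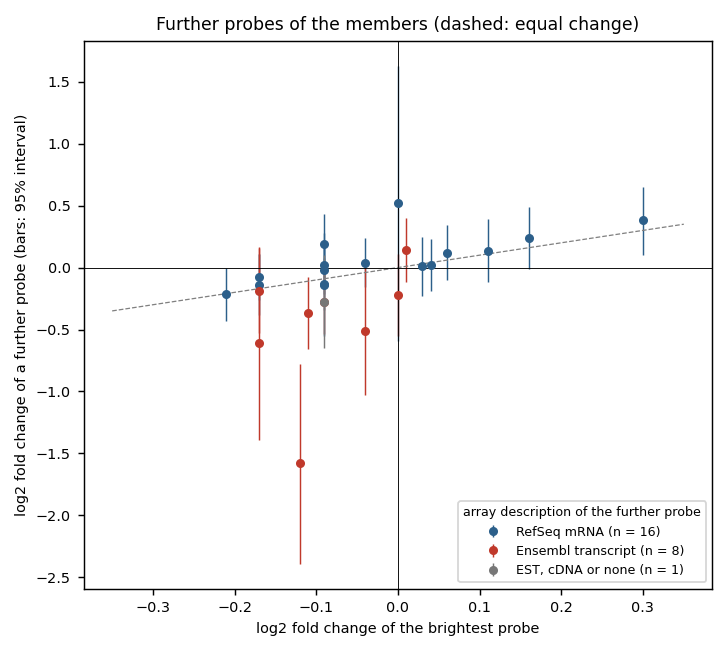
Log2 fold change (βUCP2Tg minus WT) of each further tested probe of a member against that of the gene's brightest probe, coloured by the array's description; bars are 95% intervals and the dashed line marks equal change. Most RefSeq mRNA probes lie near the line, with Cox7c at 0.52 and an Atp5h probe at 0.19 above it, and 7 of the 8 Ensembl transcript probes lie below 0, lowest for Atp5d at -1.58.

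Many nuclear respiratory genes are known targets of NRF1 and of the ETS factor GABP (NRF-2). The NRF1 letters (GCGCA, any base, then GCGC) and the ETS letters (CCGGAAG) were searched on both strands of RefSeq promoter windows of 300 bases around a transcription start (GRCm38.p6), in which 38 of the 49 members had an entry. The NRF1 letters were in 10 members (26.3%), against 5.19% of 27025 genes with a window and 7.17% of the protein-coding ones. The ETS letters were in 12 members (31.6%), against 9.93% and 12.9%. At least 1 of the motifs was in 18 members (47.4%; 14.0% of all genes), and 4 members held both. The median change was 0.01 in the 10 tested members with NRF1 letters and -0.01 in the 26 without, and 0.00 with and without the ETS letters. Letters in a window describe the sequence and are not evidence of binding.

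Promoters of 3 members are shown, the Sdhd window with both motifs, the Uqcrc1 window with 2 NRF1 matches, and the window of Cox5a, which had the smallest p of the members and neither motif. They are written along the gene's strand as the RefSeq table gives them, and capitals mark the motif letters of either strand.
Sdhd, chr9:50603800-50604099, minus strand: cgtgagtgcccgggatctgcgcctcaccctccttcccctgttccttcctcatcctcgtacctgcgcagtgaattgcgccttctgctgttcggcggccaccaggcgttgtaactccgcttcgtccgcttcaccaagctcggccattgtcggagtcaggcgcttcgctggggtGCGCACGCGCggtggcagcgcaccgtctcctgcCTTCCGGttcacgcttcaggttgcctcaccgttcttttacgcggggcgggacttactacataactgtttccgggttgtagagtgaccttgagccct
Uqcrc1, chr9:108936398-108936697, plus strand: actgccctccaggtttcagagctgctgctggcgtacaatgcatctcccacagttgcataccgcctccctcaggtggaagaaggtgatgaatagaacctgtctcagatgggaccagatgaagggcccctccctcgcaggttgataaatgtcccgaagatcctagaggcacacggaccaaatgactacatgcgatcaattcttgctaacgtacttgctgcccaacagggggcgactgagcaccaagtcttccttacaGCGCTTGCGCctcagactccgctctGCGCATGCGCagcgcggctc
Cox5a, chr9:57520982-57521281, plus strand: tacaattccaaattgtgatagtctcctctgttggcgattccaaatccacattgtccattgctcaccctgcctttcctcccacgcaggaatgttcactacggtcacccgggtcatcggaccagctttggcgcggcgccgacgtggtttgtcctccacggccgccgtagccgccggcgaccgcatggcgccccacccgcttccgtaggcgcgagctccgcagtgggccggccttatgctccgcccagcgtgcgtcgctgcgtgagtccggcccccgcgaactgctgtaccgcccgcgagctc

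Other genes of the same machinery were taken from lists. Of the 6 subunits of complexes III, IV and V that mitochondrial DNA encodes, 4 had a probe under the names listed. They changed by 0.06 (CYTB), 0.13 (COX1), 0.18 (COX2, with 1 WT array left out because its spot was an outlier) and 0.11 (ATP8), all above 0 and none with an unadjusted p under 0.05. Of the 36 nuclear complex I subunits tested, 0 were called, 1 was higher and 2 were lower at an unadjusted p under 0.05, and their median was 0.02.

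The assembly factors of the 4 complexes gave 37 tested genes, of which 0 were called, 4 were higher (10.8%, against 12.9% of all genes) and 1 was lower (2.70%, against 11.6%) at an unadjusted p under 0.05. Their median change was 0.07 against 0.03 over all genes, and 29 of 37 were above 0, against 9644 of 17857 genes. Sdhaf1, which helps insert iron-sulphur clusters into Sdhb, gave 2.33, 2.31, 2.37 and 1.99 in βUCP2Tg and 2.10, 1.65, 1.63 and 1.96 in WT islets, a change of 0.42 (adjusted p = 0.134). Sdhaf4, which helps Sdha join Sdhb, changed by 0.41 (adjusted p = 0.130). In each, WT replicate 1 lay within the range of the βUCP2Tg values. For complex III, Uqcc3 was at 0.38 (adjusted p = 0.197) and Ttc19, which clears fragments of the Rieske protein, at -0.43 (adjusted p = 0.092). For complex IV, Cox15, an enzyme of haem A synthesis, was at 0.32 (adjusted p = 0.176), and none of the 4 complex V genes, the inhibitor Atpif1 among them, had an unadjusted p under 0.05.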

How the data were processed

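Islet RNA of 4 βUCP2Tg and 4 WT samples was labelled with Cy3 and hybridised, 1 sample per array. The authors scanned the arrays and deposited Feature Extraction files with background-corrected intensity per spot and flags for outliers and background. The submitters' notes name version 9.1 and the file headers 10.7.3.1. The authors also deposited a GeneSpring table of normalized log2 values, which equal the scanner values shifted by array (within 0.05 for 99.98% of probes or more), with symbols, probe sequences and their own fold changes and p-values, which were not used.

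From the intensities, outlier and control spots were dropped, log2 taken, each array's 75th percentile subtracted and spots of a probe averaged. Probes well above background on at least 4 of 8 arrays were tested with limma 3.58.1 (R 4.3.3; files read with data.table, version 1.17.8) with Benjamini-Hochberg adjustment over all probes tested, and called at an adjusted p under 0.05 and over 1.5-fold. The fit was tested on simulated data. A gene was represented by its probe with the highest mean over the deposited normalized columns. Sequences were searched with Python 3.11.15 and plots drawn with matplotlib 3.10.9.

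The members, the gene lists and the alternatives were chosen with earlier results of these data known. The genes named are those with the 2 highest and 2 lowest changes of each complex, the protein markers, core subunits and isoform sets, and members that any setting called. Genes of the further lists, and probes described singly, were named after their values were seen.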

Additional observations from a re-analysis of the deposited data

Results flagged for a closer look

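In 4 of 92 groups of 4 arrays (46 members in each genotype) a single array lay apart from the others by more of the group's range than the 95% limit of Dixon's test allows. Chance flags about 1 in 20 groups, which is 4.60 of 92, so the number is near what chance gives. The gap was 0.897 of the range for Uqcrb, where WT replicate 4 read 4.79 and the other WT arrays 4.65 to 4.67. It was 0.895 for Cox6b1, where WT replicate 2 read 1.60 and the others 1.80 to 1.82. For Cox5a it was 0.880, with βUCP2Tg replicate 4 at 4.59 and the others at 4.76 to 4.78. For Cox6a2 it was 0.870, with βUCP2Tg replicate 1 at 4.41 and the others at 3.89 to 3.96.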

How the results depend on the processing

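The count of members called was 0 under every alternative run, and the median member change stayed between -0.05 and 0.06, within the pooled SD of 0.08 between arrays. Its highest values were 0.06 with quantile normalization and 0.05 with each array set to the median of all probes. The count of members at an unadjusted p under 0.05, which was 2, became 1 with no filter on dim probes, with probes well above background on at least 1 array, with quantile normalization and with the median of all probes. It became 4 with normexp at an offset of 50, with an intensity trend in limma and with the mean of all tested probes of a gene. The methods' t-test gave 3 such members (Atp5g1, Cox5a and Uqcrb) and 0 after Benjamini-Hochberg adjustment. Leaving out 1 array at a time gave 0 to 3 such members, a median change from -0.05 to 0.03 and 0 members called. The labels do not say whether samples with the same replicate number form pairs. The deviations of same-numbered arrays correlated at 0.44, -0.05, -0.01 and -0.24, which does not settle it. With the replicate number as a block, 0 members were called, the median change was -0.01 and 1 member (Cox6a2, lower) had an unadjusted p under 0.05, while genes called in all fell from 86 to 9. Genes called in all, 86 in the comparison above, were 14 with no filter, 23 with at least 1 array, 138 with all 8 arrays, 52 with the percentile over probes measured on all arrays, 461 with normexp, 141 with signals floored at 5, 17 with the methods' t-test, 210 with the intensity trend and 165 with the mean of probes. They were 5 without βUCP2Tg replicate 1, 2 or 3, 625 without βUCP2Tg replicate 4, 2020 without WT replicate 1, 17, 10 and 16 without WT replicates 2, 3 and 4, and 2742 with both βUCP2Tg replicate 4 and WT replicate 1 left out. In the 2020 and in the 2742 case 1 member, Atp5sl, had an adjusted p under 0.05 (0.036 and 0.0217), with a change under 1.5-fold. Over all alternatives its adjusted p ran from 0.0217 to 0.412. Of 782 values under the alternatives for the 34 tested genes of the naming rule (which leaves out Atp5d, Atp5h, Atp5s and Cox7c, among others), 37 had another sign than in the comparison above, in 16 genes whose changes there were 0.11 or less in size. No slide block could be run, since all arrays shared 1 slide.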
